A study of Mus musculus with 2 samples.

Results

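In experimental autoimmune encephalomyelitis (EAE), the mouse model of multiple sclerosis in which T cells attack myelin, the spinal cord held a population of CD8 T cells that is described here from single-cell RNA counts. They are the 849 cells, of 20504 kept, that had at least 2 counts of Cd3d, Cd3e and Cd3g together, at least 1 count of Cd8a and Cd8b1 together, and no count of Cd4, Foxp3, Trdc or Siglech. Those 9 genes chose the cells, so their levels are a description and are not tested. The source was spinal cord CD45+ cells (leukocytes and microglia) of 4 mice of the C57BL/6 strain, collected 15 days into the disease course counted from induction. By their labels, 2 of the mice had no treatment and 2 had an inhibitor, and a hashtag antibody told the mice apart on the 1 BD Rhapsody run they shared. The induced disease was common to both groups, and no mouse without EAE was analysed here. The title of the series speaks of WT and STAP-1 mice, while the labels of these 4 mice give C57BL/6 and no Stap1 allele. The inhibitor's name, target, dose and schedule, the induction protocol and the age of the mice are not given in these sources.

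The untreated mice gave 263 and 170 CD8 T cells and the inhibitor mice 161 and 255. Wherever 4 values follow a gene name, they are for untreated mouse 1, untreated mouse 2, inhibitor mouse 1 and inhibitor mouse 2, in that order. The summed counts were 3005156, 1972839, 2194685 and 3185202, and the median cell had 8516 counts over 1595 genes. The cells compared with them were 2699 conventional CD4 T cells (the same CD3 rule with a count of Cd4 and none of Cd8a, Cd8b1, Foxp3, Trdc or Siglech) and 166 NK cells (a count of Ncr1 and none of the CD3, CD8, Cd4 or Siglech genes), with medians of 8774 and 8082.5 counts per cell. Levels are CPM, the count of a gene scaled to a fixed total of the summed counts of a cell type in a mouse, so they do not separate fewer expressing cells from less RNA per cell. They are compared for 1 gene between cells, not between genes.

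CD8 T cells recognise peptides on MHC class I through a T cell receptor and the CD8 coreceptor, a dimer of the Cd8a and Cd8b1 products. Once activated, they kill by releasing granules in which perforin opens the way for granzymes, and they secrete interferon gamma and the chemokines that draw in other leukocytes. In EAE, CD4 T cells start the disease, while CD8 T cells are regular members of the infiltrate whose part in it is debated. Naive and central memory CD8 T cells carry Ccr7, a lymph node homing receptor, together with the factors Tcf7 and Lef1. NK cells share the granule programme and many receptors with CD8 T cells but lack a T cell receptor.

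The granule genes carry much of what follows, and the promoters of 3 of them are shown because T-box factors (Eomes, T-bet) and Runx3 are the known regulators of this programme and Eomes was one of the genes measured. Each sequence runs 5′ to 3′ from 250 bases before to 50 bases after the RefSeq start of the gene (GRCm38.p6), on the strand of the gene, and capitals mark the T-box letters GGTGTGA and the Runx letters TGTGGT, which on the other strand read ACCACA.
Nkg7, chr7:43436888-43437187, plus strand: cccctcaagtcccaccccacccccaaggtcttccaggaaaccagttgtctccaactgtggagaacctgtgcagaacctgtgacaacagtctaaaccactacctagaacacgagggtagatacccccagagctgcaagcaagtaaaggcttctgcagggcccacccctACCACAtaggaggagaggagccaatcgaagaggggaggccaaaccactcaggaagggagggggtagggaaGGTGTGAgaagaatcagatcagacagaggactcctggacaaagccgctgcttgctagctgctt
Gzmk, chr13:113180916-113181215, minus strand: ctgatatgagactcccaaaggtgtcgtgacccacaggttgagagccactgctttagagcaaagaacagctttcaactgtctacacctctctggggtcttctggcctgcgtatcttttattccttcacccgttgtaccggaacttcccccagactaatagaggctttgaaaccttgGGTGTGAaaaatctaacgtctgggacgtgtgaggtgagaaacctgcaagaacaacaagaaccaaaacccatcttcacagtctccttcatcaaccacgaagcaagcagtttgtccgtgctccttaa
Gzma, chr13:113100932-113101231, minus strand: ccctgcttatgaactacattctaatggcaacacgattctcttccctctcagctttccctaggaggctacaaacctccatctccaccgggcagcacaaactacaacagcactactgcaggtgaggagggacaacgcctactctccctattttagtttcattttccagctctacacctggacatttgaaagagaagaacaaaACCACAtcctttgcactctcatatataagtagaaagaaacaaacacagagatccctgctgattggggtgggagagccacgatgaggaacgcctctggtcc

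The Nkg7 window held both motifs, the Gzmk window the T-box letters and the Gzma window the Runx letters. Of the 15 granule genes examined, 13 had a promoter in the RefSeq table. The T-box letters, on either strand, were in 4 of those 13 (Gzmk, Gzmm, Nkg7 and Rab27a) and in 3.98% of all 32851 promoters. The Runx letters were in 10 of the 13 and in 16.8% of all promoters. Both are matches of letters in a window and no measurement of binding.

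The rule rested on few counts in some members. A count of Cd8b1 was found in 726 members (85.5%), a count of Cd8a in 578 (68.1%) and both in 455 (53.6%). The median member had 10 CD8 counts and the highest 261, but 176 had a single CD8 count. Just inside the CD3 threshold lay 56 members with exactly 2 CD3 counts, and just outside it 180 cells with 1. Before the 4 genes that had to be absent were applied, 1752 cells met the rule. Of the cells left out for Cd4, 59 had exactly 1 count of it and none of the other 3 genes. A further 2745 T cells had no count of Cd8a, Cd8b1, Cd4, Foxp3, Trdc or Siglech, so an unknown number of CD8 T cells was not counted. Cells of other types had CD8 counts too, for a reason that was not tested: at least 1 was seen in 8.72% of 4599 neutrophils (median 8614 counts), 7.69% of 390 B cells (5998.5 counts) and 14.1% of 4147 T cells with Cd4 (10918 counts). At least 5 CD8 counts were seen in 0.391%, 0.256% and 3.62% of these cells.

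Members with a single CD8 count differed from those with many. An antigen receptor constant gene (Trac, Trbc1 or Trbc2) was detected in 77.8% of the 176 members with 1 CD8 count, in 88.0% of the 117 with 2 to 4, in 98.9% of the 280 with 5 to 19 and in all 276 with 20 or more. The summed level of 12 neutrophil genes mostly went the other way, at 125114, 72924, 6164 and 9385 CPM in the same order. At least 2 of 6 effector genes (Gzmk, Gzmb, Nkg7, Ccl4, Ifng, Cxcr6) were detected in 31.8%, 44.4%, 64.3% and 87.7%. Median counts per cell were 8077.5, 6739, 6769.5 and 11616.5 in that order, so the detection shares of the last set come from deeper cells. The part of depth in these differences was not tested. The member list thus held cells rich in myeloid transcripts: 188 members (22.1%) had at least 4 detected genes of the neutrophil, the microglia and macrophage, the B lineage or the erythroid list, with a median of 17105 counts and a receptor constant gene in 78.7%. The gene tests and the class shares were therefore repeated on the 468 members with at least 5 CD8 counts and at most 3 such markers, called here the stringent CD8 T cells, which changes the CD8 threshold and the markers together. In the repeated gene tests, CD4 T cells and NK cells with at least 4 such markers were left out as well. There were 148, 78, 92 and 150 of them, with a median of 8232 counts, and 99.4% had a receptor constant gene.

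**Figure D1:**
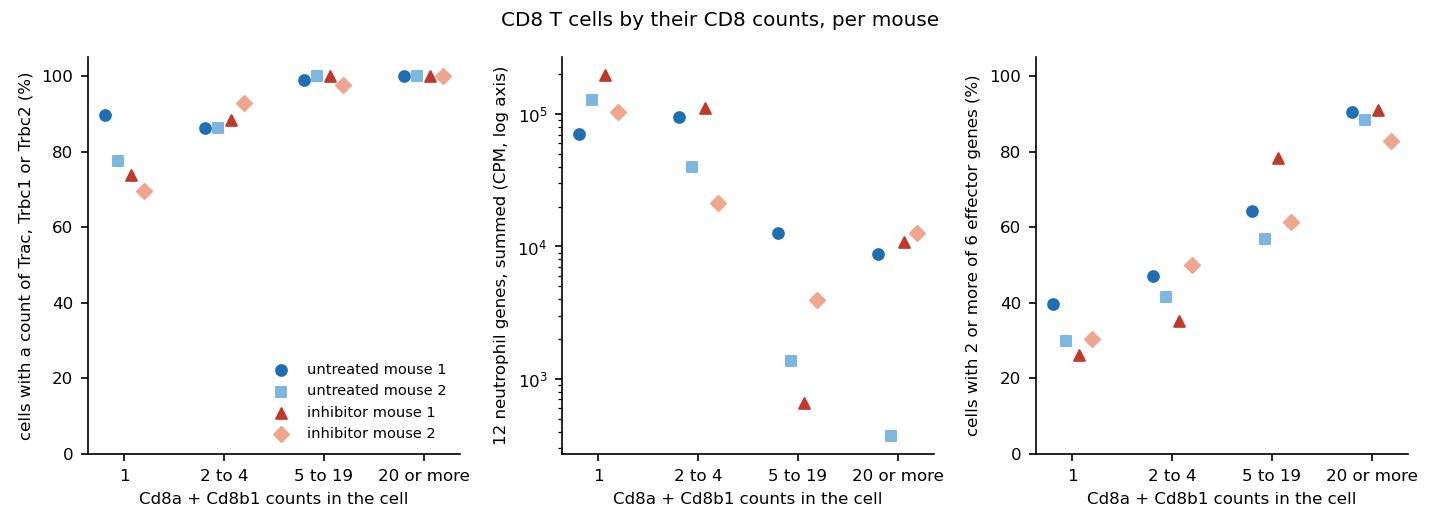
Percent of members with a receptor constant gene, summed level of 12 neutrophil genes (CPM, log axis) and percent with at least 2 of 6 effector genes, by the number of Cd8a and Cd8b1 counts in the cell, with 1 point per mouse. Over all mice, receptor detection goes from 77.8% to 100% and the neutrophil sum from 125114 to 9385 CPM between the lowest and the highest class.

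The label could be checked on genes outside the rule. Trac, the constant gene of the receptor alpha chain, was detected in 82.1%, 72.4%, 73.3% and 77.7% of members, against 12.7% of NK cells, 10.9% of neutrophils and 8.46% of B cells. Sums over marker lists leave out the genes of the rules. The 5 CD4 helper genes summed to 43.3, 95.8, 49.2 and 121 CPM, against 264 to 412 CPM in CD4 T cells. A list of 8 NK genes summed to 796 to 1548 CPM, against 5189 to 6164 CPM in NK cells, and 6 gamma-delta T cell genes to 12.3 to 39.2 CPM. Ncr1 was detected in 0.825% of members and Zbtb16, a factor of innate-like T cells, in 1.06%. Ccl5 and Gzmk, 2 genes named as markers of these cells with results in view, were detected in 59.7% and 23.7% of members, in 16.8% and 4.11% of CD4 T cells, and in 1.67% and 0.326% of neutrophils. The smallest nonzero Ccl5 count in the matrix was 5. A cell with fewer would be listed at 0, so the Ccl5 shares, those of the other cells included, may be too low.

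The granule genes Gzma, Prf1, Gzmb and Nkg7 were higher in CD8 T cells than in the CD4 T cells of the same mice, and higher still in NK cells. Gzma, a granzyme gene at chr13:113093825-113100981 (GRCm38), stood at 619, 728, 731 and 639 CPM in CD8 T cells and at 29.7, 37.3, 23.2 and 56.01 CPM in CD4 T cells. All 4 CD8 values lay above all CD4 values, and the difference was 4.35 ± 0.21 (log2 fold with its standard error, 4 mice, edgeR with the mouse as a block, adjusted p = 2.25e-06). In NK cells Gzma stood at 5915, 3738, 3564 and 6169.8 CPM, above every CD8 value, so that CD8 minus NK was -2.73 ± 0.18 (adjusted p = 6.89e-06). The authors' matrix holds no Gzma value from 1 to 3, so a cell at 0 is only listed at 0.

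Prf1, the gene of perforin (chr10:61297833-61304680), followed the same order. Its CD8 levels were 82.9, 90.2, 83.8 and 48.3 CPM, its CD4 levels 7.28, 9.28, 13.8 and 6.30 CPM and its NK levels 1216, 779.6, 499 and 814 CPM. CD8 exceeded CD4 by 3.18 ± 0.21 (adjusted p = 2.34e-05) and differed from NK by -3.36 ± 0.25 (adjusted p = 1.83e-05), with no overlap in either case. Gzmb (chr14:56258838-56262260), the granzyme that cleaves caspases, was at 276, 288, 219 and 188 CPM, 3.14 ± 0.23 above CD4 and -1.29 ± 0.18 against NK. Nkg7 (chr7:43437073-43438249), a granule membrane protein, was at 1411, 1031, 1106 and 1250.5 CPM in CD8, 491, 343, 443 and 443 CPM in CD4 and 2821, 2401, 1369.7 and 2216 CPM in NK cells. It was 1.57 ± 0.09 above CD4 (adjusted p = 6.35e-06). The NK range of Nkg7 began at 1369.7 CPM, under the highest CD8 value of 1411 CPM, and the difference of -0.78 ± 0.15 passed the test at an adjusted p of 0.0181 (5.38e-07 to 0.313 over the alternatives, with the call lost under a stricter CD8 rule and without untreated mouse 1, untreated mouse 2 or inhibitor mouse 2).

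Gzmk (chr13:113171608-113225908), a granzyme of memory-type CD8 T cells, was the granule gene that ran against NK cells. It stood at 202, 138, 128 and 99.5 CPM in CD8, at 13.6, 9.37, 55.1 and 16.9 CPM in CD4 and at 0, 2.96, 21.3 and 23.1 CPM in NK cells. Every CD8 value was above every CD4 and NK value. The difference from CD4 was 2.96 ± 0.39 (adjusted p = 0.00127) and that from NK 3.72 ± 0.67 (adjusted p = 0.0141, 3.28e-16 to 0.0801 over the alternatives, the highest without untreated mouse 2). Gzmm (chr10:79689020-79695261) was 2.70 ± 0.35 above CD4 at 36.3, 32.4, 12.3 and 16.6 CPM.

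Of the 15 granule genes, 14 passed the filter on low counts, and 8 of these were higher in CD8 than in CD4 T cells (Gzma, Prf1, Gzmb, Gzmk, Gzmm, Nkg7, Serpinb6b and Lamp1) and none lower, with a list median of 0.78. Over all 11965 genes tested, 736 (6.15%) were called at an adjusted p under 0.05, 418 higher (3.49%) and 318 lower (2.66%), around a median of 0.00. The count was 377 without the mouse as a block, 420 without untreated mouse 2 and 439 without inhibitor mouse 2. Among stringent CD8 T cells, 380 of 10323 genes were called (3.68%), 165 higher (1.6%) and 215 lower (2.08%). There 8 granule genes were higher again, with Ctsw in place of Lamp1, Srgn was lower, and the median was 1.14. The stringent cells had the larger folds: Gzma 4.71, Gzmb 3.59, Gzmk 3.51, Prf1 3.40 and Nkg7 1.98. Against NK cells, where 189 of 9247 genes were called (2.04%, with 1.04% higher and 1.01% lower), 1 granule gene was higher, Gzmk, and 6 were lower (Prf1, Gzma, Serpinb9, Serpinb6b, Gzmb and Nkg7). The same 7 were called among stringent cells, in a comparison with 218 of 6891 genes called (3.16%, with 1.63% higher and 1.54% lower).

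**Figure D2:**
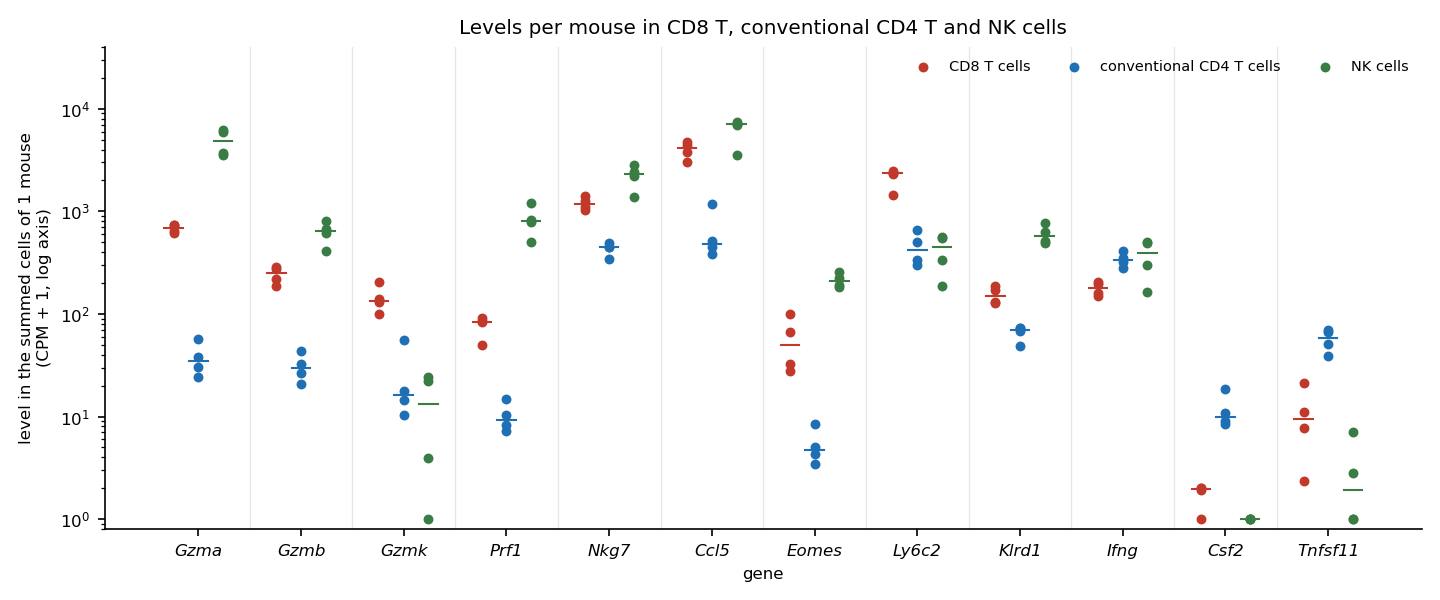
Levels of 12 genes (CPM plus 1, log axis) in CD8 T cells, conventional CD4 T cells and NK cells, with 1 point per mouse and a bar at the median of the 4 mice. Gzma, Gzmb and Prf1 step up from CD4 to CD8 to NK cells, Gzmk and Ly6c2 are highest in CD8 T cells, and Csf2, Tnfsf11 and Ifng are lower in CD8 than in CD4 T cells.

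Single granzymes reached a minority of the cells. At least 1 of Gzma, Gzmb and Gzmk was detected in 320 members (37.7%), with 43.0%, 35.9%, 44.1% and 29.4% in the 4 mice. Gzmk alone was seen in 88 cells (10.4%), Gzmb alone in 77 (9.07%), Gzma alone in 14 (1.65%), Gzma with Gzmb and no Gzmk in 28 (3.30%) and Gzmk with Gzmb or Gzma in 113 (13.3%). None of the 3 was detected in 529. Among stringent cells the share with at least 1 was 48.5% (227 of 468). Background was low, with Gzmk detected in 0.326% of neutrophils, Gzmb in 1.17% and Gzma in 0.457%. Thinned to 4000 counts per cell, which left out 109 shallower members, Gzmk was detected in 18.9% of members instead of 23.7%, Gzmb in 20.8% instead of 24.4% and Gzma in 12.2% in both cases. The smallest nonzero Gzma count in the matrix was 6, so thinning could remove few of its detections. A cell with fewer Gzma counts would be listed at 0, so the Gzma shares here, that of neutrophils included, may be too low.

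A cell with 1 granzyme often had another. Gzmb was detected in 50.7% of the 201 cells with Gzmk (95% Wilson interval 43.9 to 57.6) and in 16.2% of the 648 without it (13.6 to 19.2), where the cells with Gzmk had a median of 9841 counts and the others 8124.5. In stringent cells the shares were 52.4% and 22.4%. Gzma was detected in 38.2% of cells with Gzmb and in 3.89% of those without, and Prf1 in 35.3% and 9.35%. Eomes was detected in 26.9% of cells with Gzmk and 11.4% of those without, and Pdcd1, which encodes the inhibitory receptor PD-1, in 14.9% and 5.71%. Cells with Tcf7, a factor of naive and memory T cells, were poorer in granzymes although they were deeper (9892 against 7758 counts): Gzmk was seen in 17.3% of them against 28.0%, and Gzmb in 16.5% against 29.8%. Cxcr6, a tissue homing receptor, went with more Gzmk (34.3% against 16.8%) and more Ifng (45.5% against 27.5%). These shares pool the cells of 4 mice, and their intervals cover counting error only.

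Of 6 chemokine genes tested, 3 were higher in CD8 than in CD4 T cells (Ccl5, Ccl4 and Ccl3) and 2 lower (Ccl1 and Cxcl10), in all members and in stringent cells (medians 1.42 and 1.85). Ccl5 (chr11:83525778-83530518) was at 4702, 3819.9, 4472 and 2999.8 CPM in CD8 and at 446, 518, 1168 and 385 CPM in CD4 T cells, without overlap, and the difference was 2.89 ± 0.19 (adjusted p = 2.34e-05). NK cells had 7066, 7384, 3558 and 7003 CPM, a range that overlapped the CD8 values (difference -0.55 ± 0.20, adjusted p = 0.276). Ccl4 (chr11:83662584-83664683) stood at 141, 136, 149 and 194 CPM, 1.49 ± 0.26 above CD4, and Ccl3 (chr11:83647844-83649355) at 94.8, 111, 103 and 80.7 CPM, 1.35 ± 0.21 above CD4. Neutrophils also carry these chemokines, with Ccl3 detected in 33.5% and Ccl4 in 17.4% of them, and among stringent cells the folds were 2.00 and 2.57. NK cells were above CD8 T cells for Ccl3 (-1.43), Ccl4 (-1.52) and Xcl1 (-3.14), a chemokine for cross-presenting dendritic cells. Ccl1 was listed at 0 in 3 mice and at 2.28 CPM in inhibitor mouse 1, against 346, 66.1, 99.8 and 70.02 CPM in CD4 T cells. The smallest nonzero Ccl1 count in the matrix was 5, so a cell with fewer would be listed at 0. Cxcl10, an interferon-induced chemokine, was at 27.95, 34.98, 16.4 and 23.2 CPM against 59.3, 88.8, 54.8 and 59.3 CPM, below CD4 without overlap (-1.28 ± 0.17, adjusted p = 0.00165, 1.27e-08 to 0.803 over the alternatives, the highest without cells with 2 or more markers of another lineage).

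Of 12 effector cytokine genes, 11 were tested, 8 were lower in CD8 than in CD4 T cells and none higher (median -1.89, and -1.72 with 7 lower among stringent cells). Ifng, the gene of interferon gamma, was at 203, 149, 158 and 195 CPM in CD8 and 408, 320.2, 279 and 353 CPM in CD4 T cells. The groups did not overlap, and CD8 minus CD4 was -0.86 ± 0.10 (adjusted p = 0.000695, 8.44e-12 to 0.0519 over the alternatives, the highest without cells with 2 or more markers of another lineage). Csf2, the gene of GM-CSF, which the encephalitogenic CD4 T cells of EAE are known for, was at 0.998, 1.01, 0 and 0.942 CPM against 17.5, 7.42, 7.99 and 9.92 CPM in CD4 T cells (-3.73 ± 0.58, adjusted p = 0.00387). Cd40lg, the helper signal to antigen-presenting cells, was at 15.97, 16.7, 5.01 and 15.1 against 107, 118, 108 and 113 CPM (-3.01 ± 0.24), and Tnfsf11 (RANKL) at 6.66, 10.1, 1.37 and 20.4 against 68.6, 49.9, 37.8 and 65.9 CPM (-2.61 ± 0.36). Tnf was at 63.9, 82.6, 41.5 and 101 against 257, 217, 194 and 195 CPM (-1.53 ± 0.19), and neutrophils detected it in 22.05% of cells against 25.8% of members.

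Il17a differed among the mice in both T cell types. It was at 0.998, 17.7, 0.911 and 39.9 CPM in CD8 T cells, with a count in 0.380%, 3.53%, 1.24% and 6.67% of them, and at 32.9, 100.2, 22.1 and 113 CPM in CD4 T cells. Replicate 2 of each treatment was the higher one in both types, and the CD8 and CD4 ranges overlapped. Within each mouse CD8 was lower, and CD8 minus CD4 was -2.56 ± 0.41 (adjusted p = 0.00454, 5.01e-24 to 0.223 over the alternatives, the highest without the mouse as a block).

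By their genes, the CD8 T cells spread from a resting to an effector pattern. A cell was placed in the resting class if it had at least 2 of 5 resting genes, among them Ccr7, Lef1, Tcf7 and S1pr1, and at most 1 of the 6 effector genes, and in the effector class for at least 2 of the 6 and at most 1 of the 5. The resting class held 121 members (14.3%), the effector class 386 (45.5%), and 144 (17.0%) had both sets and 198 (23.3%) neither. The classes are ranges of a count: 100 of the resting and 244 of the effector cells lay within 1 gene of the limit. The 11 genes that define the classes are no finding between them.

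Other genes separated the classes in each mouse. Gzma stood at 0, 54.2, 0 and 0 CPM in the resting and at 1331, 1744, 1590.5 and 1117 CPM in the effector class, where the resting zeros are only listed at 0. Prf1 was at 24.1, 62.5, 23.6 and 19.02 against 165, 129.7, 133 and 67.6 CPM, and Ccl5 at 1779.9, 2934, 1371 and 2035 against 7290.1, 6579, 8703 and 4411 CPM. In none of these did the classes overlap, and the classes were compared without a test. Id2, a regulator of effector differentiation, was at 451, 467, 189 and 418 against 1110.0, 1439, 1129.7 and 1241 CPM. Cx3cr1, the gene of the fractalkine receptor, was at 4.82, 25.01, 35.4 and 33.3 against 129.8, 87.8, 173 and 149 CPM, and the inhibitory receptor gene Lag3 at 33.8, 4.17, 2.95 and 7.13 against 90.9, 96.2, 62.6 and 116 CPM. The DNA synthesis gene Rrm2 was higher in the effector class as well, at 9.65, 4.17, 41.3 and 14.3 against 129.8, 94.8, 81.6 and 75.04 CPM, and so was the interferon-induced gene Ifit3, at 7.24, 45.8, 2.95 and 2.38 against 123, 97.6, 134 and 50.3 CPM.

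A smaller set was higher in the resting class. Btla, an inhibitory receptor of naive lymphocytes, was at 21.7, 62.5, 29.5 and 35.7 CPM in the resting and at 5.44, 5.58, 4.47 and 1.65 CPM in the effector class. Klf2, which drives S1pr1, was at 408, 583, 348 and 361 against 238, 296, 330.0 and 126 CPM, and the coreceptor Slamf6 at 139.9, 79.2, 64.9 and 61.8 against 49.7, 34.9, 58.2 and 35.5 CPM. Klra7, an inhibitory Ly49 receptor whose family shares near-identical sequence, was at 96.5, 70.8, 61.9 and 66.6 against 20.2, 20.9, 0 and 0 CPM. Here too every resting value lay above every effector value. Neutrophil RNA lay unevenly over the classes: S100a8 was at 890.0, 0, 37914 and 21328 CPM in the resting and at 0, 7350.0, 3775 and 1529.7 CPM in the effector class. The classes were drawn from all members, of which 15.0% had at least 4 detected genes of the microglia and macrophage list. The part of neutrophil, microglia or macrophage RNA in the class differences, that of Cx3cr1 included, was not tested.

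**Figure D3:**
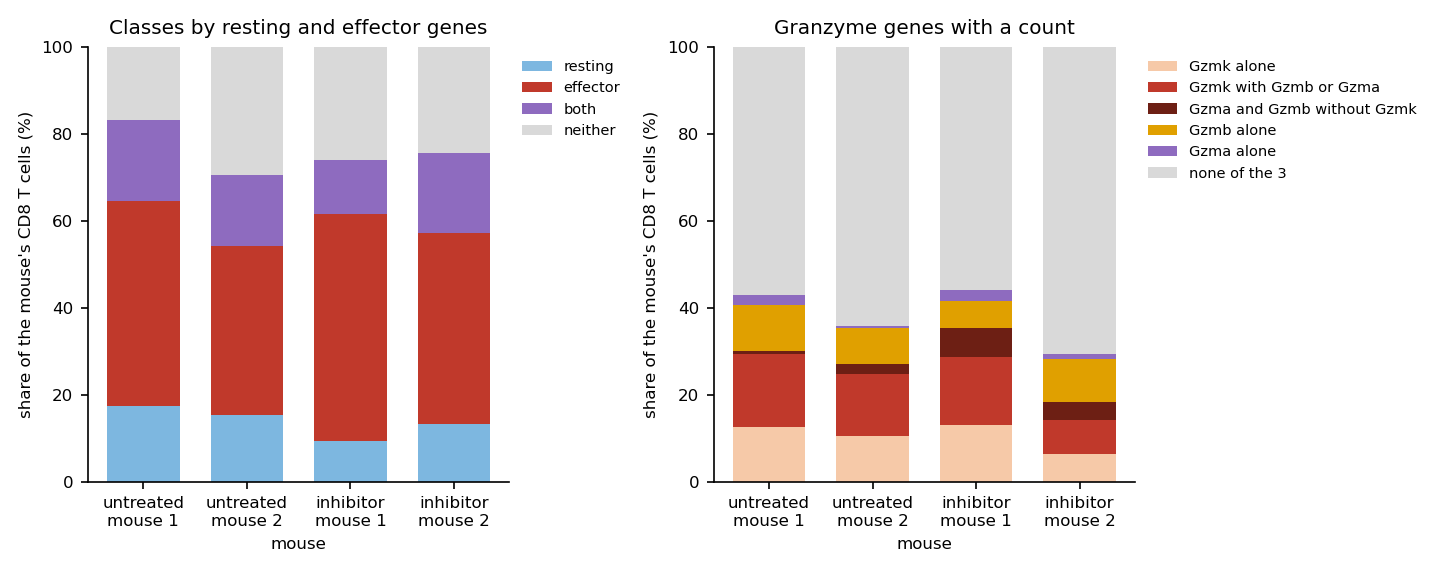
Stacked shares of CD8 T cells (percent of the cells of each mouse) by class (resting, effector, both sets, neither) and by detected granzymes, with 1 bar per mouse. The resting class covers 17.5%, 15.3%, 9.32% and 13.3% of the cells, and cells with at least 1 granzyme 43.0%, 35.9%, 44.1% and 29.4%.

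Beyond granules and cytokines, NK-type receptors were often higher in CD8 than in CD4 T cells. Of 20 such genes 14 were tested, 11 were higher and none lower (median 1.52). Klre1 (chr6:129577905-129585827), a lectin-like receptor, was at 55.9, 77.05, 25.97 and 27.3 CPM in CD8 and 3.36, 4.73, 3.19 and 1.75 CPM in CD4 T cells (3.90 ± 0.27). Klrd1 (chr6:129591782-129598775), the CD94 partner of the NKG2 receptors, stood at 188, 169.8, 128 and 130.0 against 71.7, 71.8, 47.4 and 67.1 CPM (1.34 ± 0.13, adjusted p = 0.00022). Neither gene overlapped between the types. Klrk1 (NKG2D) differed by 1.74, Klrc1 (NKG2A) by 1.43 and Cd160 by 3.09. Tyrobp and Fcer1g, adaptors that myeloid cells also carry, were among the 11 at 1.14 and 1.07. They were at 0.04 and 0.22 and not called among stringent cells, where 8 of 13 were higher (median 1.95). All 14 genes called against NK cells were lower in CD8 T cells, of 17 tested (median -3.19).

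Eomes (chr9:118478212-118486132) differed most from CD4 T cells among the 15 transcription factors tested. It was at 65.6, 26.9, 98.4 and 31.4 CPM against 4.06, 3.34, 7.45 and 2.45 CPM, without overlap (3.69 ± 0.25, adjusted p = 2.35e-05), and at 255, 222, 183 and 190.5 CPM in NK cells (-2.05 ± 0.34 against NK). Tbx21, the gene of the related factor T-bet, was at 30.6, 42.6, 26.4 and 28.9 CPM and did not pass against CD4 (-0.05 ± 0.20, adjusted p = 0.944). Of the 15 factors, Eomes and Id3 were higher and 4 were lower: Maf (-1.92), Zbtb7b (-1.26), the gene of the CD4 lineage factor ThPOK, Bhlhe40 (-1.07), which GM-CSF-producing T cells need, and Id2 (-0.56). The median was -0.12. Among stringent cells Eomes stayed higher (4.09), Hopx was called in place of Id3, and the same 4 were lower.

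Surface molecules that place or steer T cells moved in both directions. Ly6c2 (chr15:75108158-75111970), which marks memory-type CD8 T cells and monocytes, was at 2485, 2371, 2306 and 1432 CPM in CD8, 501, 298, 657 and 335 CPM in CD4 and 336, 551, 563 and 185 CPM in NK cells. CD8 T cells were above both without overlap (2.39 ± 0.16 and 2.55 ± 0.17). Although 80.8% of neutrophils carry a count of Ly6c2, the difference from CD4 was 2.97 among stringent cells. Of the resting genes, Dapl1 and Klf3 were among those higher and S1pr1, Il7r and Satb1 were lower, with Tcf7 at -0.20 ± 0.13 (adjusted p = 0.464). Of 14 resting genes tested, 3 were called each way (median 0.26), and among stringent cells 1 was called each way.

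Among chemokine receptors, 3 were higher, with S1pr5 (2.49) and Cx3cr1 (0.77) among them, and Ccr6, Ccr4, Cxcr6, S1pr1 and Ccr2 were lower, of 12 tested (median -0.14). Cxcr6 was at 211, 199, 118 and 243 CPM in CD8 and 381, 495, 329.6 and 514 CPM in CD4 T cells, below them without overlap (-1.09 ± 0.12), and 2.75 above NK cells. Of 10 residence genes tested, Crtam (2.89), a gene of cytotoxic lymphocytes, and Itga1 (1.13), the collagen-binding integrin CD49a, were higher, and Cxcr6, Cd69, P2rx7, Rgs1 and Rgs2 lower (median -0.60). Itgae, the CD103 gene of epithelial residence, did not pass (1.30 ± 0.40, adjusted p = 0.0934) and was detected in 3.18% of members.

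Costimulatory and inhibitory receptors split as well. Cd27, a TNF receptor family member, was at 85.2, 78.6, 68.8 and 57.5 CPM against 25.05, 21.4, 29.02 and 13.3 CPM in CD4 T cells, higher without overlap (1.84 ± 0.18). Icos was at 158, 245, 145 and 275 against 576, 637, 512 and 648 CPM (-1.48 ± 0.12) and Tnfrsf4, the gene of OX40, at 16.97, 23.8, 2.73 and 16.01 against 171, 146, 129.9 and 138 CPM (-3.29 ± 0.30), both lower without overlap. Of 9 tested, 2 were higher (Cd27, Slamf7) and 5 lower (Tnfrsf4, Icos, Tnfrsf9, Cd28 and Tnfrsf18), with a median of -1.10. Of 11 coinhibitory genes, Cd160 and Klrg1 were higher and Cd200, Ctla4 and Lag3 lower (median -0.05). In stringent cells the latter 3 were no longer called. Pdcd1 was at 39.9, 32.9, 22.3 and 45.2 CPM in CD8 and 54.02, 32.6, 18.4 and 35.6 CPM in CD4 T cells (0.13 ± 0.20, adjusted p = 0.818).

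Several lists depended on which members were used. Of 12 neutrophil genes all 12 were higher in CD8 than in CD4 T cells (median 1.78), and of 12 microglia and macrophage genes 6 (median 0.74). These lists summed to 31798, 52360, 77119 and 33063 CPM and to 3033, 4528, 5659 and 2854 CPM in CD8 T cells, against 6402, 8660, 42342 and 10675 CPM and 2221, 2960, 2331 and 1423 CPM in CD4 T cells. In stringent cells, which were chosen on these markers, the neutrophil sum was 389, 406, 410 and 475 CPM with 4 of the 12 genes at 0. The CD4 T cells of that comparison, chosen on the same markers, had 486, 444, 421 and 449 CPM. Of the 15 genes with the largest folds above CD4 among those with a mean of at least 50 CPM in CD8 T cells, Cebpe, Fcnb, Camp, Ltf, Mgst1 and S100a8 are neutrophil genes, with folds from 2.04 (S100a8) to 2.38 (Cebpe), and none was called among stringent cells. Cell cycle genes, 7 of 17 higher with all members (median 0.82, Mki67 0.60, Cdk1 1.28), had none called among stringent cells. Mki67, a gene of dividing cells, was detected in 15.6% of members and 15.0% of stringent cells. Of 14 receptor complex genes 8 were lower than in CD4 T cells (median -0.45), but 3 among stringent cells (Cd5, Cd6 and Lat, median -0.03). Of the 418 genes called higher, 85 were among the 165 called higher in stringent cells (20.3% of the former and 51.5% of the latter), and of the 318 called lower, 149 were among the 215 (46.9% and 69.3%). Scaling by library size alone gave 324 higher and 414 lower in place of 418 and 318.

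**Figure D4:**
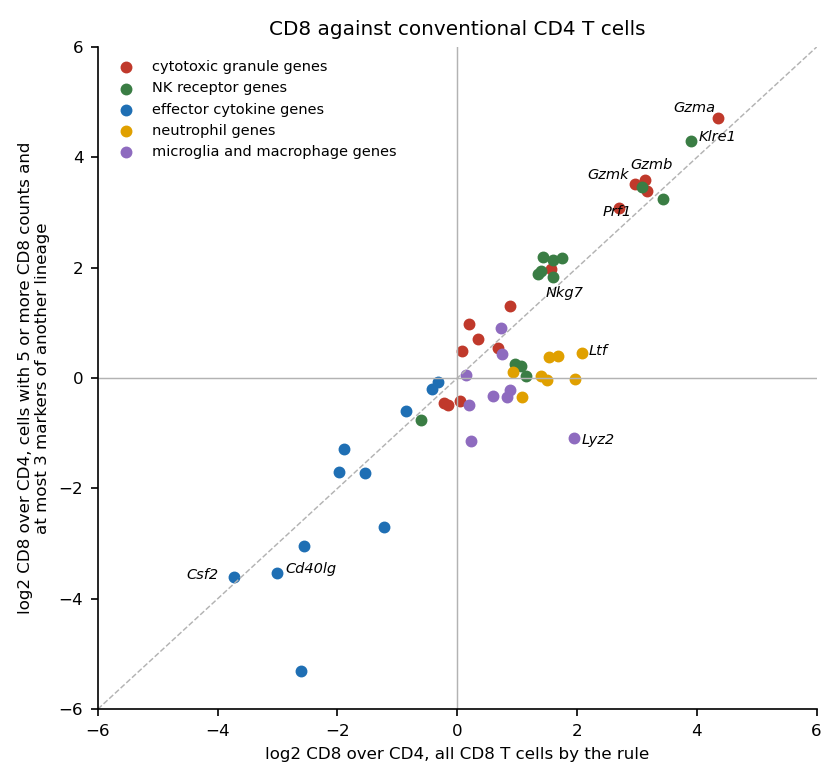
Difference between CD8 and CD4 T cells (log2 fold) for all members (horizontal) and for the stringent cells (vertical), 1 point per gene, for granule, NK receptor, effector cytokine, neutrophil, and microglia and macrophage genes tested in both. The dashed line marks equal values. Granule and NK receptor genes such as Gzma (4.35 and 4.71) lie near or above it, and the neutrophil genes fall from a median of 1.78 (12 genes) to 0.07 (8 genes). The stringent cells were chosen on the neutrophil and the microglia and macrophage markers, as were the CD4 T cells compared with them.

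Of 17 activation genes, 9 were lower in CD8 than in CD4 T cells and none higher (median -0.63), among them the receptor-induced factors Nr4a1 (-1.14), Nr4a3 and Egr1. In stringent cells 8 were lower and 1 higher, Dusp2. Of 16 cytokine receptor genes 8 were lower (median -0.49), with Il2ra, the gene of CD25, at -2.32, and 4 among stringent cells. Interferon-induced genes showed 1 higher (Ifit3, 0.71 ± 0.17, adjusted p = 0.0313, 0.00173 to 0.168 over the alternatives, with the call lost without any 1 of the 4 mice) and 1 lower (Igtp, -0.74) of 17. None of 13 mitochondrial genes was called. Outside the lists, Nrgn, the gene of the calmodulin-binding protein neurogranin, was at 1.33, 3.04, 0.911 and 10.4 CPM in CD8 and at 115, 103, 68.1 and 86.8 CPM in CD4 T cells, far apart in every mouse (-4.53 ± 0.43, adjusted p = 0.000215).

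Against NK cells, 5 of 17 interferon-induced genes tested were higher in CD8 T cells and none lower (median 1.56, against 0.11 over all genes tested). Ifit3 was at 78.5, 51.7, 56.5 and 35.8 CPM in CD8 and at 3.61, 0, 0 and 1.92 CPM in NK cells, and Ifi27l2a at 894, 746, 857 and 636 against 16.3, 44.5, 265 and 48.1 CPM. Neither overlapped, and the difference was 3.68 ± 0.48 for Ifi27l2a (adjusted p = 0.00151). Ifit3 was called too (adjusted p = 0.0029), but its 3 counts in all NK cells give no usable fold. It met the filter on low counts through its CD8 levels alone, so its direction was set before the test. A gene could meet that filter through 1 cell type alone, so list counts and medians between cell types are descriptions. In stringent cells 5 of 15 were higher too, with Bst2 in place of Gbp2 (median 1.83). NK cells were few, 26 to 54 per mouse, and without untreated mouse 1, untreated mouse 2 or inhibitor mouse 2 the calls fell from 189 to 117, 114 and 86. Of the NK sums, inhibitor mouse 1 and untreated mouse 2 had the most neutrophil RNA in them (62773 and 48040 CPM). Antigen receptor genes were higher, as the cell types imply: Trac by 5.36 and Lat by 3.42. Icos (2.46), Cxcr6 (2.75), Ly6a (3.07) and S100a4 (1.85) were higher too, and Klf2 (-1.005) and Il2rb (-1.92), the shared interleukin receptor chain, lower. The 12 genes furthest below NK cells were mostly NK receptors of the Klra and Klrb families, whose members share near-identical sequence, with Klrb1c, the NK1.1 antigen, at -5.40.

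The design asks next whether the inhibitor changed the CD8 T cells. CD8 T cells were 5.57% and 3.43% of the kept cells of the untreated and 2.85% and 4.93% of those of the inhibitor mice. The ranges overlapped, and the means of 4.50% ± 1.51 and 3.89% ± 1.47 (SD, n = 2 each) differed by -0.610 percentage points (exact permutation test, two-sided, p = 0.667). Without untreated mouse 1 or inhibitor mouse 1 the difference was 0.459 and 0.432. With 2 mice a group this test cannot give a p below 0.3333. Of all T cells they were 12.9% and 6.74% against 11.9% and 12.7% (exact permutation test, p = 1.0). The low value belongs to untreated mouse 2, and without it the difference of 2.49 points became -0.594. The resting class made up 17.5% and 15.3% of CD8 T cells in the untreated and 9.32% and 13.3% in the inhibitor mice, from 46 of 263, 26 of 170, 15 of 161 and 34 of 255 cells. Both inhibitor values were the lower ones, and the difference was -5.07 points (exact permutation test, p = 0.3333, the smallest possible). It was -6.60 points among stringent cells (16.4% and 9.80%). The effector class was 47.1% and 38.8% against 52.2% and 43.9%, with overlap (difference 5.06 points, exact permutation test, p = 0.667).

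No gene passed the test between treatments in CD8 T cells. Of 11507 genes 0 were called by edgeR at an adjusted p under 0.05 (0%), 471 (4.09%) passed 0.05 before adjustment, and the 2 called by DESeq2 were Il1b and Stfa2l1. Leaving out each mouse in turn gave 1 to 32 calls, with 8 without untreated mouse 1 and 32 without inhibitor mouse 2. In stringent cells 0 of 8985 were called and 401 (4.46%) had an unadjusted p under 0.05. Il1b, the interleukin 1 beta gene of myeloid cells, had the smallest p. It was at 38.6, 33.96, 172 and 135 CPM, higher in both inhibitor mice, with a difference of 2.09 ± 0.26 (adjusted p = 0.474, 6.25e-09 to 1 over the alternatives). In stringent cells it was at 15.3, 4.18, 16.6 and 16.2 CPM, with the higher untreated value next to the inhibitor values (0.63 ± 0.86). Stfa2l1, a neutrophil stefin, was at 7.32, 7.60, 71.99 and 29.2 CPM in all members and at 0.666, 2.79, 3.33 and 1.35 CPM in stringent cells. Of the 8 genes with the smallest p for lower levels under the inhibitor, Ccl2 (-2.08) and Cd209a are genes of myeloid cells. Klre1, an NK-type receptor gene also among them, is described below.

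No effector gene passed between treatments. The inhibitor minus untreated difference was 0.04 ± 0.20 for Gzma, -0.46 ± 0.20 for Gzmb, -0.38 ± 0.32 for Prf1, -0.04 ± 0.20 for Nkg7 and -0.17 ± 0.22 for Ccl5, each with an adjusted p of 0.999. Gzmk was lower in both inhibitor mice (-0.57 ± 0.27), with a count in 29.3%, 24.7%, 28.6% and 14.1% of cells. Gzmm (-1.23 ± 0.38) and the NK-type receptor gene Klre1 (-1.30 ± 0.31) also had both inhibitor values below both untreated ones. None of the 3 passed (adjusted p = 0.999 each, and 0.0763 to 1 over the alternatives for Klre1). Klre1 did not follow the effector class, with means of 53.4 CPM in the resting and 51.2 CPM in the effector class. Ly6c2 was at 3238, 2754, 2107 and 1366 CPM in stringent cells, lower in both inhibitor mice (-0.82 ± 0.15, adjusted p = 0.885). Stap1, an adaptor gene named in the title of the series (chr5:86071746-86106125), was at 75.9, 75.5, 66.5 and 64.05 CPM in CD8 T cells, with a difference of -0.20 ± 0.25 (adjusted p = 0.999).

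The gene lists had no member called. All 17 tested interferon-induced genes lay below zero, from -1.57 to -0.0041 with a median of -0.46, against 0.00 over all genes. In stringent cells they ran from -1.54 to 0.998 with a median of -0.43. NK-type receptors had a median of -0.58 (17 genes), and -1.03 in stringent cells (13 genes). Medians of the granule, chemokine, cytokine and resting lists were -0.14, -0.17, -0.03 and -0.15. The neutrophil list had 0.70 with all members and -0.03 in stringent cells (8 genes), and the microglia and macrophage list -0.82 and -0.16 (8 genes). Erythroid genes summed to 1278, 0, 2997 and 11695 CPM and, in stringent cells, to 0, 0, 1.11 and 0.673 CPM. The stringent cells were chosen on the markers of these neutrophil, microglia and macrophage, and erythroid lists. Smaller values of those lists among them follow from that choice.

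**Figure D5:**
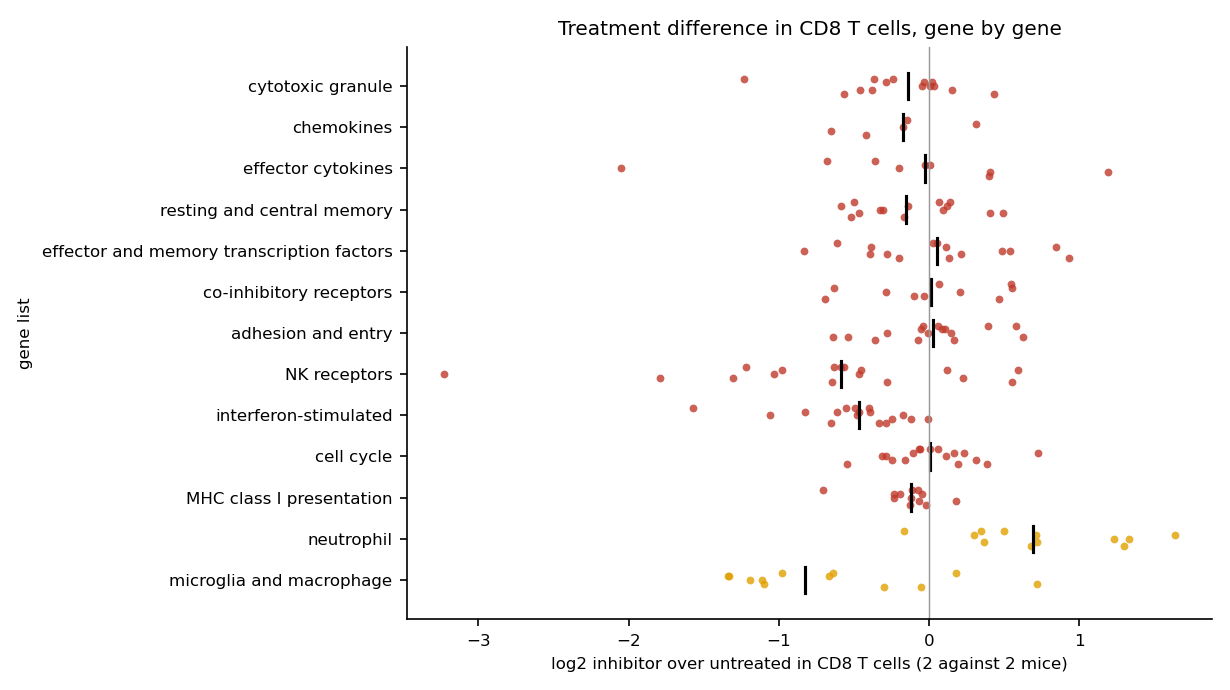
Inhibitor minus untreated difference (log2 fold) in CD8 T cells for each tested gene of each list, 1 point per gene, with a black bar at the list's median. The bar of the interferon-induced genes is at -0.46, that of the neutrophil genes at 0.70 and that of the granule genes at -0.14, and no point passed the test.

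Whether the treatment difference was another one in CD8 than in CD4 T cells was tested directly. No gene of 13052 passed (0%), 563 (4.31%) passed 0.05 before adjustment, and 12 were called by DESeq2. Leaving out each mouse in turn gave 12 to 42 calls, with 42 without inhibitor mouse 2. Gzmk was among the 5 with the smallest p for a lower value in CD8: it was at 202, 138, 128 and 99.5 CPM in CD8 and at 13.6, 9.37, 55.1 and 16.9 CPM in CD4 T cells, so that the 2 differences were -2.001 ± 0.41 apart (edgeR adjusted p = 0.636, 6.23e-06 to 1 over the alternatives). The high CD4 value was that of inhibitor mouse 1. Il1b was the first in the other direction (2.64 ± 0.32, adjusted p = 0.116), followed by H2-Aa (1.69) and Cd74 (1.37), both of antigen presentation on MHC class II.

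Receptor beta variable segments were read in few cells. A single Trbv segment was detected in 131 CD8 T cells (45, 24, 22 and 40 per mouse) and more than 1 in 12. Trbv13-2 (chr6:41121396-41121832) was the most frequent, in 20 cells (15.3%), followed by Trbv12-2 in 16 (12.2%), Trbv20 in 10, Trbv14 and Trbv16 in 9 each and Trbv13-1, Trbv13-3, Trbv15 and Trbv2 in 7 each. Of the 20 cells with Trbv13-2, 16 came from inhibitor mouse 2, where they were 40.0% of the cells with 1 segment (95% Wilson interval 26.3 to 55.4), against 1 of 45 in untreated mouse 1 (2.22%), 1 of 24 in untreated mouse 2 and 2 of 22 in inhibitor mouse 1. CD4 T cells of inhibitor mouse 2 carried it in 25 of 157 (15.9%) and CD4 T cells of all mice in 74 of 547 (13.5%). Trbv20 was seen in 4 of 45 and 6 of 24 cells of the untreated mice and in 0 of 22 and 0 of 40 of the inhibitor mice, which allows shares of up to 14.9% and 8.76% (95% Wilson). It was singled out after its values were seen, and CD4 T cells carried it in 18 of 140, 12 of 182, 12 of 68 and 24 of 157. Cells with the same segment need not share a clone, and whole receptor sequences were not analysed here.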

How the data were processed

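The deposited counts, whole numbers that the authors did not normalize, cover 28482 genes in 25461 columns, with the hashtag of each cell in the column name. Reads were placed on GRCm38, per the submitters' processing notes. Aligner, counter and strand use, and whether counts stand for molecules or reads, were not given in the sources used here. Of the genes, 44 have no value from 1 to 3, Ccl5 and Gzma among them. Left out were 3943 columns with more than 1 hashtag, of which 179 would have met the CD8 rule, and 1014 cells above 20% mitochondrial counts. No cell barcode was shared between mice, and no doublet caller was run on the kept cells. Doublets within a mouse remain in them.

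Counts were summed per mouse and cell type and tested with edgeR 4.0.16 (quasi-likelihood, filterByExpr, TMM, Benjamini-Hochberg) in R 4.3.3, with the mouse as a block between cell types, since the 2 sums come from the same animal. DESeq2 1.42.0 was an alternative. Coordinates are from GENCODE on GRCm38. Named genes are members of fixed lists, the 8 smallest p each way between treatments and 5 for the difference of treatment differences, and the 15 (CD4) and 12 (NK) largest called folds each way, of 1 sign in all mice and with a mean of at least 50 CPM in the higher cell type. Members and lists were chosen with earlier results of these data known, and the stringent CD8 T cells were chosen after seeing the data. Per the labels each mouse is a separate animal. Some genes are not reported here. Scripts were tested on simulated data.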

Additional observations from a re-analysis of the deposited data

How the results depend on the processing

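Of 11507 genes, 0 were called between treatments in the main fit and with upper quartile scaling, library size alone, bias-adjusted deviances and the stricter choices of cells, against 1 with thinned cells, 2 with DESeq2, 95 without a filter on low counts and 1 to 32 with each mouse left out in turn. Replicate numbers were not used to pair the mice. Same-numbered deviations correlated at -0.0423 over 11507 genes, which with 2 mice a group cannot show whether the numbers pair them. The treatment fit with the replicate number as a block called 0, as did the main fit. Against CD4 T cells the 736 calls became 474 under the stricter CD8 rule, 136 without cells with 2 or more markers of another lineage, 490 with thinned cells, 370 without cells with 4 or more such markers, 380 for the stringent cells, 1248 without the filter, 377 with no replicate block (no mouse block) and 420 to 503 with a mouse left out. Against NK cells 189 became 107 without cells with 2 or more markers of another lineage, 364 with DESeq2, 510 without the filter, 204 with no replicate block and 86 to 200 with a mouse left out. The test of the difference of treatment differences went from 0 to 2 under the stricter CD8 rule, 1 with thinned cells, 12 with DESeq2, 49 without the filter, 0 with no replicate block and 12 to 42 with a mouse left out.

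The treatment difference in shares was -1.68 to 0.459 points of kept cells and -0.594 to 5.58 points of T cells with a mouse left out, and 0.697 points of kept cells with neutrophils out of the denominator. That of the resting class stayed negative, -7.08 to -3.06 points with a mouse left out. The effector class gave 0.899 to 9.22 points, and -1.07 with at least 3 genes required.

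Of 137 named genes called against CD4 T cells, 129 were tested among stringent cells, where 79 kept their call and direction, 43 lost the call and 7 changed sign. DESeq2 kept all 137, and without the mouse block 53 lost the call. Against NK cells 67 of 76 kept it among stringent cells. Some genes called in the main fit changed sign with the choice of cells. Against CD4 T cells under the stricter CD8 rule, Cebpe was at -0.90, Fcnb at -9.37 (a fitted value on few counts), Camp at -0.33, Fcer1g at -0.0095, Tyrobp at -0.0424 and Lcn2 at -0.0456. Without cells with 2 or more markers of another lineage, Thy1 was at 0.0489 and Mmp9 at -0.96. Without cells with 4 or more markers, Mmp9 was at -0.128, Cxcr2 at -0.0776, Csf1r at -0.269 and Lyz2 at -0.39. For the stringent cells, Thy1 was at 0.0314, Mmp9 at -0.0434, Cxcr2 at -0.34, Ngp at -0.0257, Sparc at -0.208, Csf1r at -0.34 and Lyz2 at -1.09. Against NK cells, C1qb was at -0.0408, Apoe at -0.237, Cst3 at -0.48 and Cd74 at -0.38 for the stringent cells. Apoe was at -0.1212 and H2-Aa at -0.0204 without cells with 4 or more markers, and H2-Aa at -3.08 without cells with 2 or more. For all of these the cause was not tested. The filters for 4 or more markers and for stringent cells were chosen after seeing the data. Depth limits the rare genes most: Csf2 and Il17a rest on few counts, and a cell without a count of Cd4 or Cd8a may still express it.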
